A study of Mus musculus with 2 samples.

Results

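Protocadherins are cadherin-related adhesion molecules of the cell surface, and the mouse genes fall into clustered and non-clustered groups. The protocadherin rows were taken as every row of the deposited table whose gene name begins with Pcdh, which gave 71 of 21937 genes. They comprised 12 non-clustered genes and 59 genes of the clusters, 15 in alpha, 22 in beta and 22 in gamma. The cells were wild-type ES cells (embryonic stem cells) of the mouse strain 129Sv-C57Bl/6, cultured without feeders, and their messenger RNA was sequenced. One group received 500 nM ICRF-193 for 16 h and the other its solvent DMSO for the same time. ICRF-193 blocks the catalytic cycle of topoisomerase II, which passes one DNA duplex through another. Each group was labelled as 3 replicates, and the labels do not say whether these were separate cultures, so p-values cover the spread between these libraries alone, which may be technical.

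In the alpha, beta and gamma clusters each variable exon has its own promoter, and in neurons single cells use different combinations of them, which gives each cell an identity at its surface. The insulator protein CTCF, cohesin and DNA methylation are known to govern that choice, and the C-type genes at the ends of the alpha and gamma clusters are used more uniformly than the others. The non-clustered genes stand alone in the genome, and many belong to the delta-1 and delta-2 subfamilies, which act in cell sorting and morphogenesis of embryo and brain.

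The deposited values are group means of normalised reads (reads over the size factor of their library) beside the result of the authors' DESeq test. Reads of the single libraries were worked back from the digits of those means, with 1 solution for each of the 69 protocadherins with reads. In each group the library with the largest size factor is called A, the next B and the last C; the letter is no replicate number and pairs nothing by design. The totals were 34108003, 32149042 and 29556328 reads in ICRF-193 libraries A, B and C, and 47451130, 36754909 and 33582633 in DMSO libraries A, B and C. Libraries A stood apart from B and C in both groups. The summed level of 7 of 8 fibroblast and feeder markers (the eighth could not be worked back) was 20193, 3127 and 2494 normalised reads in ICRF-193 libraries A, B and C. In DMSO libraries A, B and C it was 17657, 1797 and 1766. The authors' test called 0 of these 8 markers at an adjusted p under 0.05. At an unadjusted p under 0.05, 1 was higher, beside 11.5% over all genes. Col1a1 made up most of that sum in the libraries A, at 15180.3 normalised reads in ICRF-193-A and 12908 in DMSO-A. Thy1 was lowest in library A of both groups, at 353, 381 and 469 normalised reads in ICRF-193 and at 185, 281 and 311 in DMSO. Dcn was also lowest in DMSO-A, at 8.76 against 12.9 and 15.1 normalised reads in DMSO-B and DMSO-C, and Lum was near 0 in both groups. The 10 neuron markers had a median log2 fold change of 0.21 in the authors' deposited table, and 0 of them were called by the authors' test. Elavl4 (-0.88) and Stmn2 (-0.47) were below 0 and the rest above. At an unadjusted p under 0.05, 1 was lower, Elavl4, and 0 higher, beside 5.38% lower and 11.5% higher over all genes. The summed level of the 10 neuron markers was 15432, 19721 and 18887 normalised reads in ICRF-193 libraries A, B and C. In DMSO libraries A, B and C it was 17851, 23189 and 21827. Stmn2 made up most of that sum, averaging 10324 normalised reads in ICRF-193 and 14281 in DMSO.

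The 2 promoters shown are those of Pcdh8, the member that rose by the authors' test, and Pcdh10, which did not pass it (adjusted p = 0.427, DESeq). Pcdh10 was 1 of 4 among the 12 non-clustered genes with every ICRF-193 library above every DMSO library, beside 17.9% over all genes. Each promoter is the window from 250 bases before to 50 bases after the gene's start, from RefSeq in the build GRCm38.p6. Every CG is in capitals. That of Pcdh8 is chr14:79771263-79771562 on the minus strand, and that of Pcdh10 is chr3:45378148-45378447 on the plus strand.
Pcdh8: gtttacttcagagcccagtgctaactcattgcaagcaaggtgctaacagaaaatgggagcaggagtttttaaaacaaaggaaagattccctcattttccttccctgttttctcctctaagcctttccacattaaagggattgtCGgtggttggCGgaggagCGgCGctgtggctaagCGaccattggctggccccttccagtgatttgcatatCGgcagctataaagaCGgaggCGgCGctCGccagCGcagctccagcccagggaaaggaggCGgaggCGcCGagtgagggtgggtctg
Pcdh10: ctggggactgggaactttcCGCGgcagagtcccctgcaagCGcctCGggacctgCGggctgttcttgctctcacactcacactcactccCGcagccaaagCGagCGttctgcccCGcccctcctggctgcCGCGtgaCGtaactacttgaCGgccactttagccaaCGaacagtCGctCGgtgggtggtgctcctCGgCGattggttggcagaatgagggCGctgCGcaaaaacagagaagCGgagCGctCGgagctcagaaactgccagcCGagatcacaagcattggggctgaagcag
The Pcdh8 window held 14 CG, and 36.3% of the 32851 mouse promoter windows held as many or more. The Pcdh10 window held 24 CG, a count reached by 20.0% of all windows, and the median over all windows was 7. The letters TATAAA (searched on both strands, the other strand reading TTTATA) began at -30 from the Pcdh8 start and were not in the Pcdh10 window. They occurred in 13.6% of all windows and in 2 of 10 windows of the 9 non-clustered genes considered, those of Pcdh8 and Pcdh15. Pcdh1, Pcdh11x and Pcdh12 were not among the 9. A match describes the letters only, and no binding was measured.

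The comparison asks how the protocadherin genes stood in ES cells after 16 h of topoisomerase II inhibition. In these bulk samples fewer cells of a type and less RNA per cell cannot be told apart. By the authors' test 1 protocadherin rose, the non-clustered Pcdh8, and 1 fell, the gamma cluster gene Pcdhga8, while the other 67 with reads did not pass. Over all 18759 genes with reads, 5.97% were called higher and 1.26% lower, so 1 of 69 was below the background for higher calls and close to it for lower calls. At an unadjusted p under 0.05, 4 members were higher (Pcdh8, Pcdh12, Pcdhb2 and Pcdhgc3) and 1 was lower, beside 11.5% higher and 5.38% lower over all genes. Group means were higher in ICRF-193 for 49 of the 69 members and lower for 20. The median log2 fold change in the authors' deposited table was 0.57 over the 12 non-clustered genes and 0.30 over the 53 clustered genes with reads in both groups, against -0.00099 over 17705 genes, 49.9% of which were higher. The clustered median rests on genes with few reads: it was -0.085 over members with a mean of at least 50 normalised reads, and -0.020 by limma-voom over the 26 clustered members fitted.

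**Figure D1:**
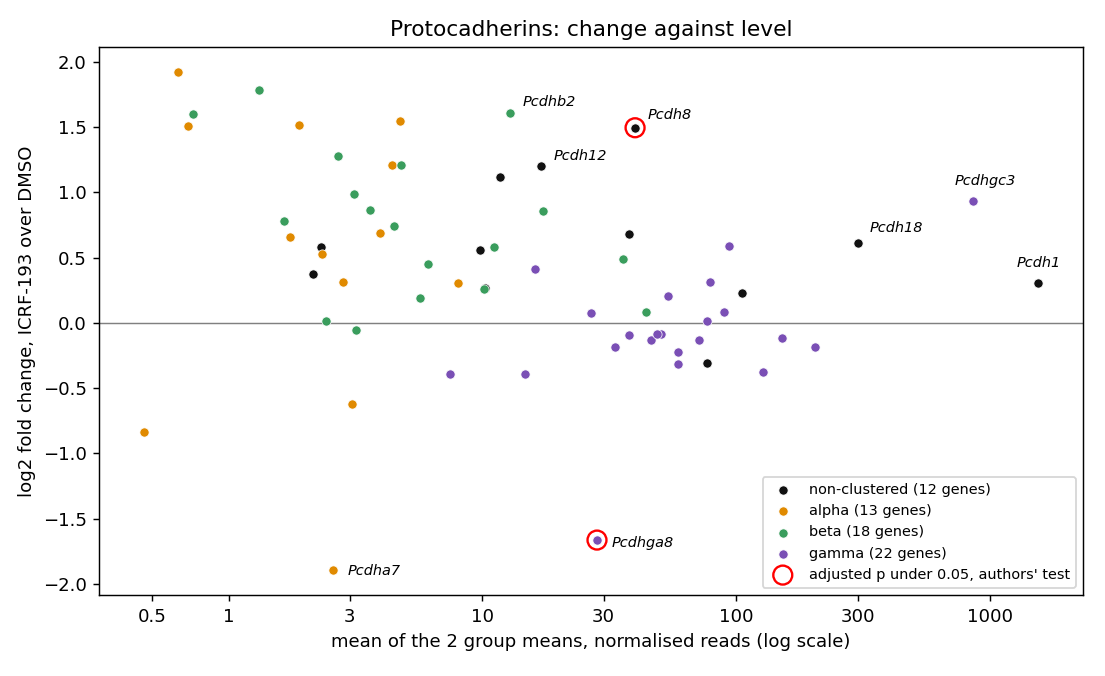
Log2 fold change of each protocadherin with reads in both groups, ICRF-193 over DMSO, against the mean of both group means in normalised reads on a log scale, from the authors' deposited table. Pcdh8 (1.49) and Pcdhga8 (-1.66) are ringed as passing an adjusted p under 0.05, most alpha and beta genes lie above 0 at few reads, and most gamma genes lie near or below 0.

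The gamma genes had the highest median level per length of the families. Per kilobase of exon that no other protocadherin gene shares, the median level was 4.14 normalised reads in ICRF-193 and 2.18 in DMSO for the non-clustered genes. It was 0.859 in ICRF-193 and 0.765 in DMSO for alpha, and 0.961 in ICRF-193 and 0.682 in DMSO for beta. For gamma it was 20.9 in ICRF-193 and 22.2 in DMSO, so the gamma median stood above the alpha and beta medians in both groups. Pcdhgc3 had the highest level per kilobase, 437 in ICRF-193 and 229 in DMSO, followed by Pcdh1 with 202 in ICRF-193 and 163 in DMSO. A length was found for 69 of the 71 genes. The strand setting and counting mode of the reads are not given in the sources used here, so reads on exons shared within the alpha or gamma cluster could have been assigned in more than one way.

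Pcdh8, also known as paraxial protocadherin, is a delta-2 gene of the paraxial mesoderm and of synapses. It was at 53.2, 53.9 and 69.6 normalised reads in ICRF-193 libraries A, B and C, against 19.1, 19.8 and 23.8 in DMSO libraries A, B and C. Every ICRF-193 library was above every DMSO library, and the libraries A were like the others. The means were 58.9 ± 9.26 normalised reads in ICRF-193 and 20.9 ± 2.51 in DMSO (SD, n = 3 each). In the authors' deposited table this was 2.82-fold, a log2 fold change of 1.49 (adjusted p = 0.00599, DESeq). On the worked-back reads limma-voom gave a log2 fold change of 1.47 with a standard error of 0.23 (adjusted p = 0.0102), and 1.47 without both libraries A (adjusted p = 0.00162). The limma-voom call did not hold without ICRF-193-B (adjusted p = 0.0509), without ICRF-193-C (adjusted p = 0.0513) or without DMSO-B (adjusted p = 0.0584). The log2 fold change of Pcdh8 in those fits was 1.53, 1.35 and 1.44. Over all genes the higher calls dropped there too, from 1464 with every library to 388, 459 and 491.

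**Figure D2:**
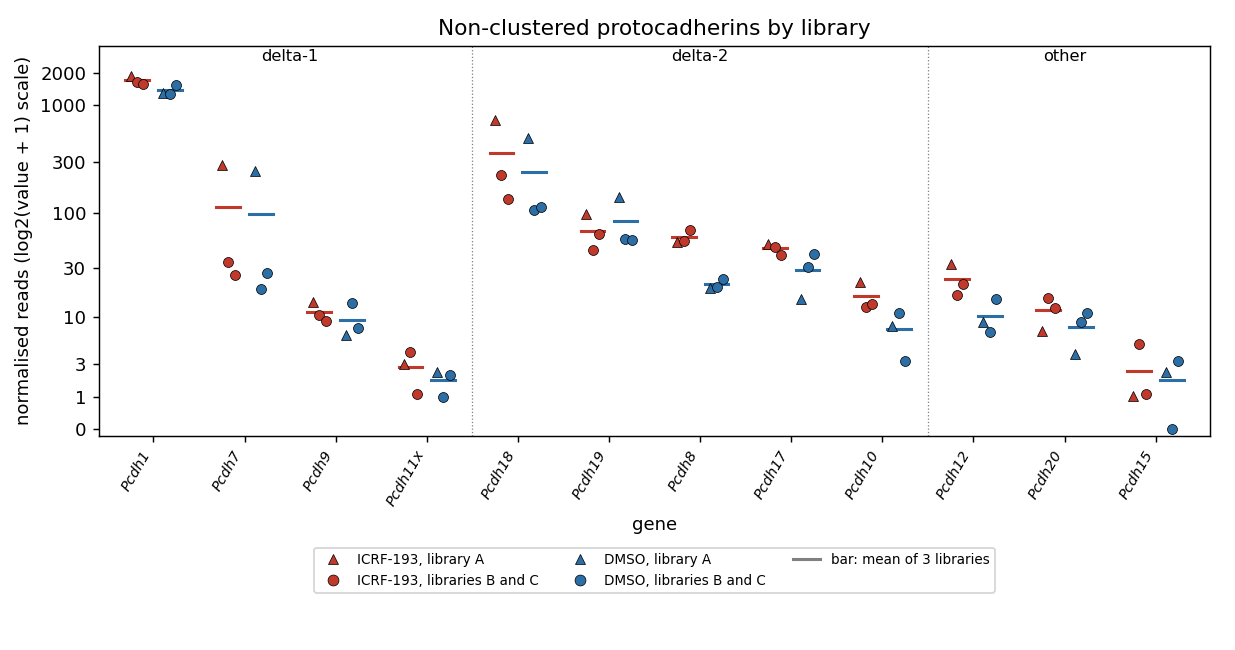
Normalised reads of the 12 non-clustered protocadherins in each library on a log2(value + 1) scale, by subfamily, with ICRF-193 left of DMSO for each gene, triangles for libraries A, circles for libraries B and C, and bars for the mean of 3 libraries. Pcdh8 lies at 53.2 to 69.6 in ICRF-193 and at 19.1 to 23.8 in DMSO, while Pcdh7 and Pcdh18 have their highest value in library A of both groups.

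Among the other delta-2 genes, Pcdh10, Pcdh17 and Pcdh18 had higher means in ICRF-193 and Pcdh19 a lower one, and none passed the authors' test. Pcdh10, a gene of axon growth and brain wiring, was at 22.1, 12.4 and 13.5 normalised reads in ICRF-193 libraries A, B and C, against 7.96, 10.9 and 3.24 in DMSO libraries A, B and C. Its libraries did not overlap, and its log2 fold change in the authors' deposited table was 1.12 (adjusted p = 0.427, DESeq). Pcdh17, known from synapses of the basal ganglia, was at 51.2, 47.7 and 40.4 normalised reads in ICRF-193, against 15.1, 30.8 and 41.1 in DMSO, with DMSO-C inside the range of the ICRF-193 libraries. Its log2 fold change in the authors' deposited table was 0.68 (adjusted p = 0.348, DESeq). Pcdh19, whose human counterpart underlies an epilepsy seen mostly in females, was at 97.4, 44.6 and 62.8 normalised reads in ICRF-193 and at 140.1, 56.5 and 56.2 in DMSO. Its groups overlapped, with a log2 fold change of -0.30 in the authors' deposited table (adjusted p = 0.907, DESeq). Its limma-voom value was 0.0075 without ICRF-193-B and 0.21 without DMSO-A.

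Pcdh18, another delta-2 gene, differed more between the libraries A and the rest than between the groups. It was at 734, 228 and 135 normalised reads in ICRF-193 libraries A, B and C, against 497, 107 and 113 in DMSO libraries A, B and C. Both libraries A were far above the rest, and within libraries B and C of ICRF-193 the values were above those of DMSO. The log2 fold change in the authors' deposited table was 0.61 (adjusted p = 0.954, DESeq). With a term for the split of libraries A from B and C, limma-voom gave 0.61 with a standard error of 0.15 (adjusted p = 0.00449). That term was fitted because the split was seen in the reads. Without both libraries A the limma-voom value was 0.68 (adjusted p = 0.0334). Without ICRF-193-A alone it was -0.10.

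The 4 delta-1 genes (Pcdh1, Pcdh7, Pcdh9 and Pcdh11x) had log2 fold changes between 0.23 and 0.58 in the authors' deposited table, and 0 passed the authors' test, also 0 at an unadjusted p under 0.05. With the split term limma-voom called 1 of the 3 it could fit, Pcdh1, beside 27.2% of all genes higher. Pcdh1, an adhesion gene of epithelia, was the most abundant non-clustered member at 1888, 1653 and 1574 normalised reads in ICRF-193 libraries A, B and C, against 1306, 1289 and 1552 in DMSO libraries A, B and C. All 3 ICRF-193 libraries were higher, although ICRF-193-C was barely above DMSO-C. The means were 1705 ± 163 normalised reads in ICRF-193 and 1382 ± 147 in DMSO (SD, n = 3 each), with a log2 fold change of 0.30 in the authors' deposited table (adjusted p = 0.602, DESeq). The split term gave limma-voom 0.31 with a standard error of 0.09 (adjusted p = 0.0103), and without both libraries A the value was 0.19 (adjusted p = 0.103).

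Pcdh7, a delta-1 gene of retinal axons in the frog, was at 282, 34.2 and 25.8 normalised reads in ICRF-193 libraries A, B and C, against 246, 18.8 and 27.0 in DMSO libraries A, B and C. Most of its reads lay in the libraries A of both groups, and the groups overlapped. The log2 fold change in the authors' deposited table was 0.23 (adjusted p = 1, DESeq). Pcdh9 was at 14.1, 10.4 and 8.98 normalised reads in ICRF-193 and at 6.37, 13.9 and 7.56 in DMSO. Pcdh11x, which lies on the X chromosome, had 8 reads in ICRF-193 and 6 in DMSO over 3 libraries each.

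The 3 other non-clustered genes were Pcdh12, Pcdh20 and Pcdh15. Pcdh12, a gene of endothelium and trophoblast, was at 33.1, 16.6 and 21.3 normalised reads in ICRF-193 libraries A, B and C, against 8.76, 6.94 and 15.1 in DMSO libraries A, B and C. The libraries did not overlap, and the log2 fold change in the authors' deposited table was 1.20 (adjusted p = 0.197, DESeq). Of 6 endothelial markers the authors' test called 1 higher, Tek, the receptor of angiopoietins, at 953 ± 152 normalised reads in ICRF-193 and 343 ± 73.3 in DMSO (SD, n = 3 each). Kdr, a receptor of vascular endothelial growth factor, had a log2 fold change of 0.72 in the authors' deposited table (adjusted p = 0.0668, DESeq), and Cldn5, a tight junction gene, had 1.41 (adjusted p = 0.174, DESeq). Cdh5 had 0.49 and Pecam1 -0.18 in the authors' deposited table. By the authors' test the list had 1 of 6 called higher and 3 of 6 higher at an unadjusted p under 0.05, beside 5.97% and 11.5% over all genes. Its median log2 fold change was 0.72 over those with reads in both groups. The summed level of the 6 endothelial markers ran from 3769 to 4028 normalised reads in ICRF-193 and from 3070.4 to 3385 in DMSO. Emcn, a defining endothelial marker, was at 0 in every ICRF-193 library and averaged 0.691 normalised reads in DMSO. Their part in the Pcdh12 value was not tested. Pcdh20 was at 7.03, 15.6 and 12.3 normalised reads in ICRF-193 and at 3.98, 8.93 and 10.8 in DMSO, while Pcdh15, a component of the tip links of hair cells, had 7 reads in ICRF-193 and 6 in DMSO.

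In the gamma cluster Pcdhga8 fell, and Pcdhgc3 had 1.91 times its DMSO mean in the authors' deposited table without passing the authors' test. Of 22 gamma genes 8 had a higher mean in ICRF-193 and 14 a lower one, with a median log2 fold change of -0.10 in the authors' deposited table. The 12 gamma-A genes had a median of -0.16 (10 lower), the 7 gamma-B genes -0.088 (4 lower) and the 3 C-type genes 0.59 (0 lower) in the authors' deposited table. Directions this small turn on the scaling: by limma-voom the median of the 21 gamma genes fitted was -0.12 with the authors' size factors and 0.017 with total-read scaling, under which the gamma-A median was 0.0021 and the gamma-B median 0.079. The C-type median was above 0 under each of the 3 scalings run. The authors' test called 1 gamma gene, Pcdhga8.

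Pcdhga8, a gamma-A gene between Pcdhgb4 and Pcdhgb5 on the chromosome, fell. It was at 16.1, 14.5 and 10.1 normalised reads in ICRF-193 libraries A, B and C, against 49.4, 41.7 and 37.8 in DMSO libraries A, B and C. Every ICRF-193 library was below every DMSO library, and the libraries A, the highest of each group, kept to their group. The means were 13.6 ± 3.09 normalised reads in ICRF-193 and 42.9 ± 5.87 in DMSO (SD, n = 3 each). In the authors' deposited table it was 3.17-fold lower in ICRF-193, a log2 fold change of -1.66 (adjusted p = 0.00777, DESeq). On the worked-back reads limma-voom gave -1.65 with a standard error of 0.27 (adjusted p = 0.0117), and -1.66 without both libraries A (adjusted p = 0.0019).

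The limma-voom call of Pcdhga8 did not hold without ICRF-193-B (adjusted p = 0.0628), without ICRF-193-C (adjusted p = 0.0603) or without DMSO-B (adjusted p = 0.0531). Over all genes the lower calls dropped there too, from 878 with every library to 89, 122 and 120. The log2 fold change of Pcdhga8 in those fits was -1.70, -1.46 and -1.66. The genes on both sides had log2 fold changes of -0.13 (Pcdhgb4) and -0.088 (Pcdhgb5) in the authors' deposited table, with adjusted p = 1 for each (DESeq). Pcdhga8 made up 0.533%, 0.682% and 0.454% of gamma reads in ICRF-193 libraries A, B and C, against 1.95%, 2.50% and 2.10% in DMSO libraries A, B and C.

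**Figure D3:**
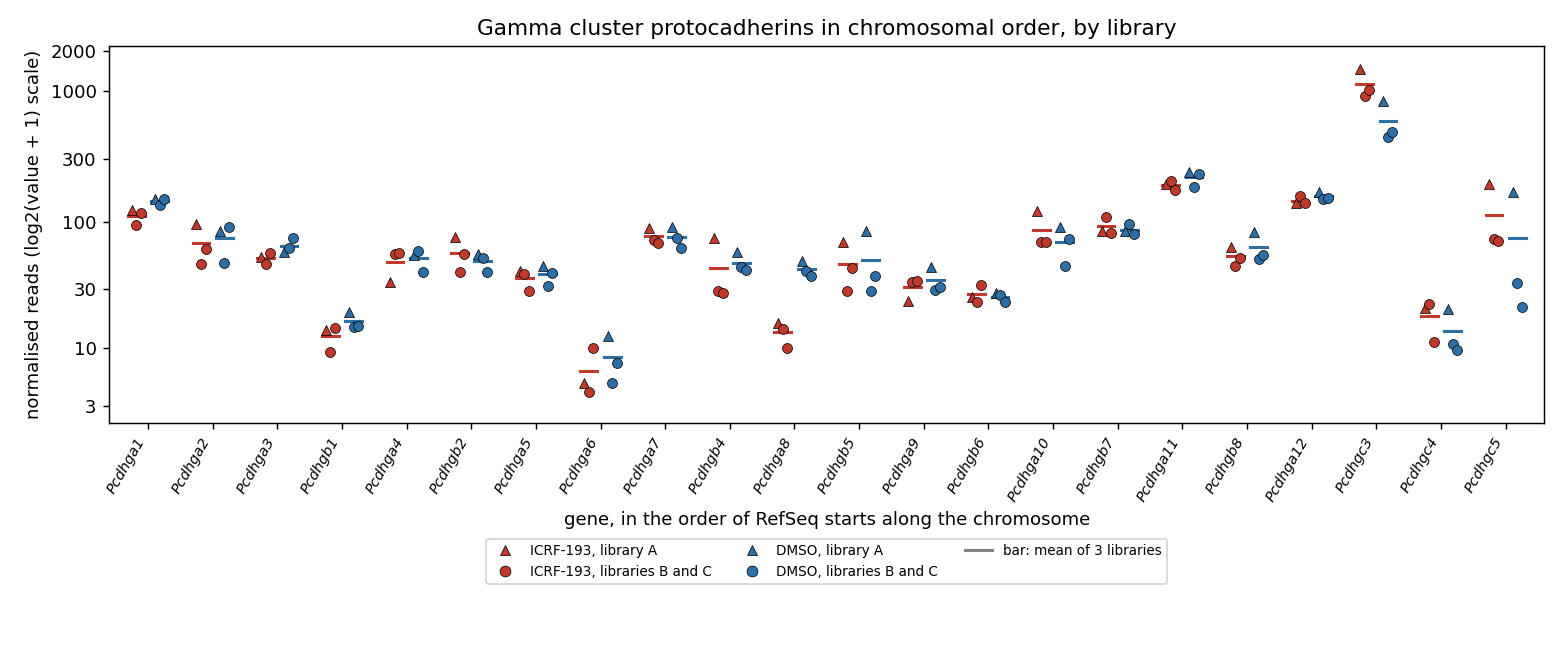
Normalised reads of the 22 gamma cluster genes in each library on a log2(value + 1) scale, in the order of their RefSeq starts along the chromosome, with ICRF-193 left of DMSO for each gene, triangles for libraries A, circles for libraries B and C, and bars for the mean of 3 libraries. Pcdhga8 lies lower in all 3 ICRF-193 libraries, and Pcdhgc3 lies higher in all 3.

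Pcdhgc3, a C-type gene whose product has been reported to bind the Wnt pathway scaffold axin, was the most abundant clustered member. It was at 1452, 908 and 1004 normalised reads in ICRF-193 libraries A, B and C, against 839, 442 and 483 in DMSO libraries A, B and C. The lowest ICRF-193 library was above the highest DMSO library, and library A was the highest in each group. The means were 1122 ± 290.5 normalised reads in ICRF-193 and 588 ± 218 in DMSO (SD, n = 3 each). The authors' deposited table gave a log2 fold change of 0.93 (adjusted p = 0.129, DESeq), which did not pass, and limma-voom gave 0.95 with a standard error of 0.29 (adjusted p = 0.0764).

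With the split term the limma-voom value of Pcdhgc3 was 0.94 with a standard error of 0.084 (adjusted p = 5.97e-06). The term follows a split seen in the reads, and with it 27.2% of all genes were called higher. Without both libraries A the Pcdhgc3 value was 1.05 (adjusted p = 1.43e-05). Pcdhgc3 made up 48.2%, 42.6% and 45.2% of gamma reads in ICRF-193 libraries A, B and C, against 33.1%, 26.6% and 26.8% in DMSO libraries A, B and C. The other gamma genes together were at 1334 ± 196 normalised reads in ICRF-193 and 1411 ± 249 in DMSO (SD, n = 3 each), a difference smaller than either spread.

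The other C-type genes of the gamma cluster had overlapping libraries. Pcdhgc5, whose product is known at GABA synapses, was at 194, 73.6 and 70.7 normalised reads in ICRF-193 libraries A, B and C, against 169.5, 33.7 and 21.6 in DMSO libraries A, B and C. Library A held the highest value in each group, and DMSO-A lay within the ICRF-193 range. The log2 fold change of Pcdhgc5 in the authors' deposited table was 0.59 (adjusted p = 0.954, DESeq), and without both libraries A limma-voom gave 1.39 (adjusted p = 0.00174). Pcdhgc4, a gene needed for survival of interneurons, was at 21.1, 22.8 and 11.2 normalised reads in ICRF-193 and at 20.7, 10.9 and 9.73 in DMSO. Its log2 fold change in the authors' deposited table was 0.42 (adjusted p = 0.896, DESeq).

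After Pcdhgc3, the most abundant gamma genes were Pcdhga11 and Pcdhga12, adhesion genes of the gamma-A group. Pcdhga11 was at 195, 205 and 174 normalised reads in ICRF-193 libraries A, B and C, against 238, 185 and 230.2 in DMSO libraries A, B and C. Pcdhga12 was at 139, 157 and 139 normalised reads in ICRF-193 and at 169, 149 and 152 in DMSO. Both overlapped between the groups, with log2 fold changes of -0.19 and -0.11 in the authors' deposited table. Named after its values were seen, Pcdhga1 was at 122, 93.3 and 117 normalised reads in ICRF-193 and at 149.6, 133 and 149 in DMSO, without overlap. Its log2 fold change in the authors' deposited table was -0.38 (adjusted p = 0.617, DESeq), and limma-voom with the split term gave an adjusted p = 0.0415. The remaining gamma-A and gamma-B genes had log2 fold changes between -0.39 and 0.31 in the authors' deposited table.

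The alpha cluster was near the limit of what these libraries could count. Of its 15 rows, Pcdha4 and Pcdha4-g had 0 reads in every library, and the other 13 had 3 to 47 reads over all 6 libraries. The cluster's sum was 35.1, 50.8 and 44.9 normalised reads in ICRF-193 libraries A, B and C, against 23.9, 35.7 and 33.5 in DMSO libraries A, B and C. The groups met closely, since DMSO-B was just above ICRF-193-A. The authors' test called 0 of the 13 alpha genes, also 0 at an unadjusted p under 0.05, and none had enough reads for the limma-voom fit.

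Pcdhac2, a C-type gene, had the most alpha reads, at 7.03, 9.33 and 10.1 normalised reads in ICRF-193 libraries A, B and C, against 3.98, 9.92 and 7.56 in DMSO libraries A, B and C. Pcdhac1, the other alpha C-type gene, had 1 read in ICRF-193 and 2 in DMSO over 3 libraries each. The alternate gene Pcdha5 had 20 reads in ICRF-193 and 7 in DMSO, and its libraries did not overlap. Pcdha3 had 17 reads in ICRF-193 and 8 in DMSO, with overlap. Named after its values were seen, Pcdha7 went the other way, with 3 reads in ICRF-193 and 13 in DMSO, and its adjusted p was 0.633 by the authors' DESeq test.

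**Figure D4:**
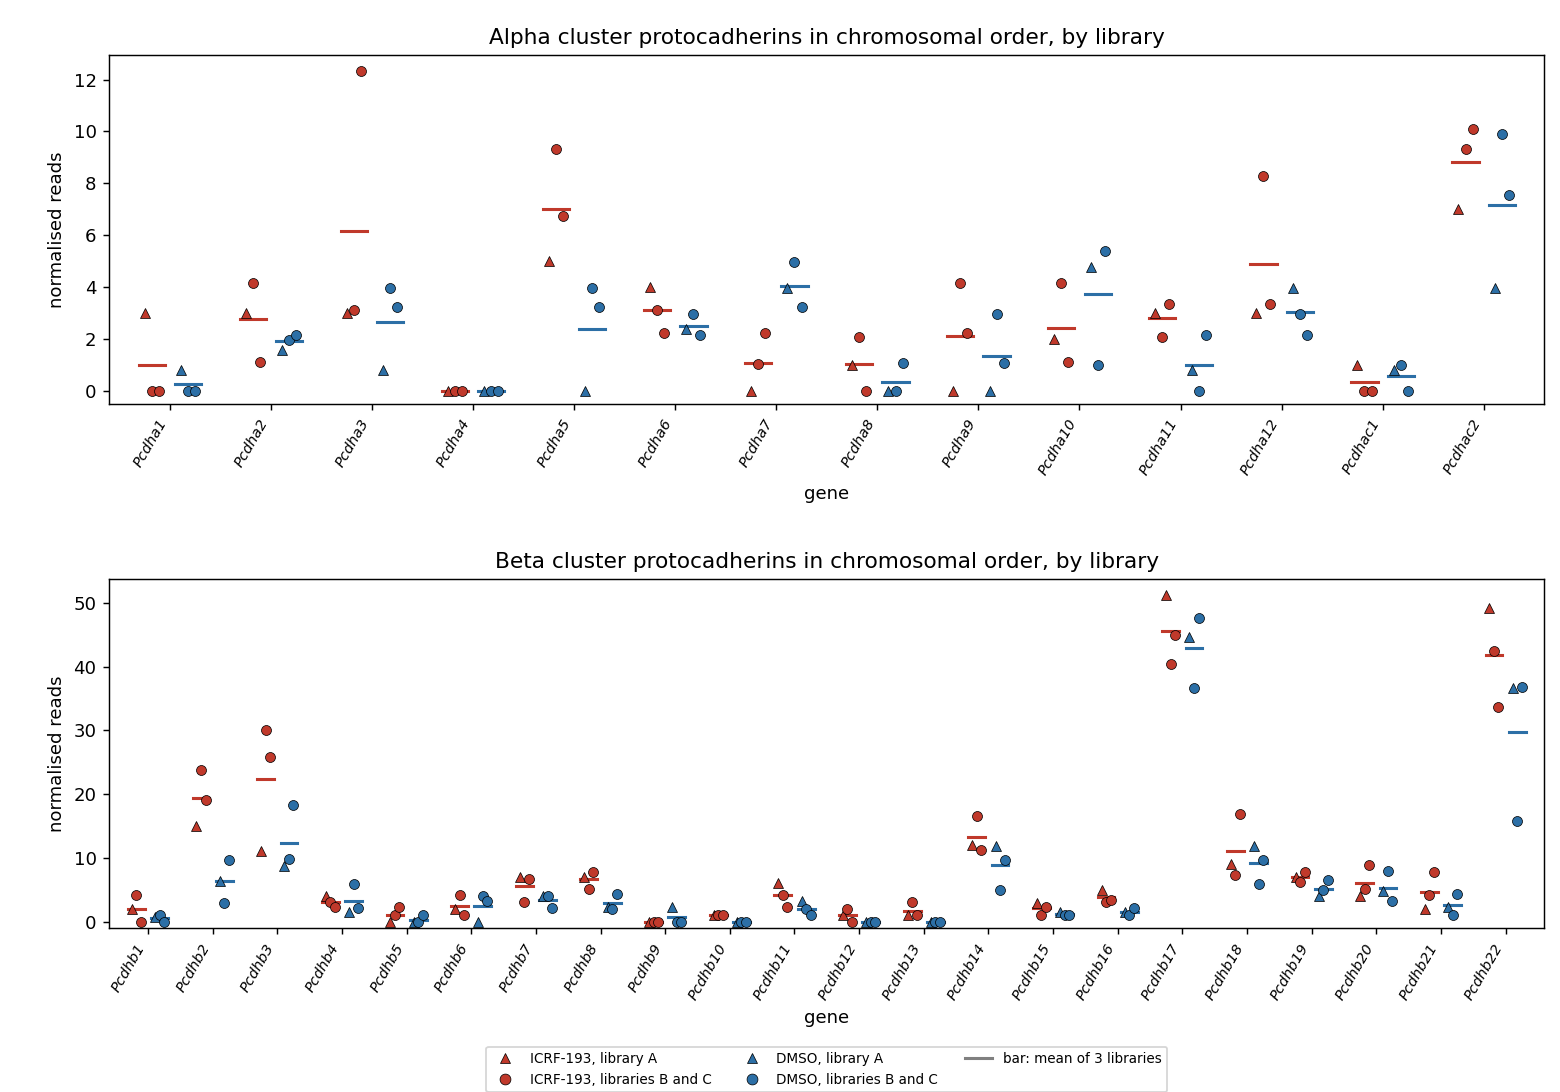
Normalised reads of the alpha cluster genes (above) and beta cluster genes (below) in each library on a linear scale, in chromosomal order, with ICRF-193 left of DMSO for each gene, triangles for libraries A, circles for libraries B and C, and bars for the mean of 3 libraries. Pcdha4-g, at 0 in every library, is not drawn. Nearly all alpha values lie under 10, and in the beta cluster Pcdhb17 and Pcdhb22 stand above the rest.

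The beta genes lack shared constant exons, each being a single coding exon with its own promoter. Their sum was 199.8, 212 and 206 normalised reads in ICRF-193 libraries A, B and C, against 149, 111 and 163 in DMSO libraries A, B and C, so that the groups did not overlap. The sum was 1.46-fold higher in ICRF-193, for which no test was run. Of 22 beta genes 20 had a higher mean in ICRF-193 and 2 a lower one, and the median log2 fold change in the authors' deposited table was 0.76 over the 18 with reads in both groups. With groups at 0 reads set to a floor of 3 reads over the group, the median over the beta genes was 0.66. The authors' test called 0 beta genes, with 1 higher at an unadjusted p under 0.05, beside 11.5% over all genes.

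Pcdhb17 and Pcdhb22 had the most beta reads. Pcdhb17 was at 51.2, 40.4 and 44.9 normalised reads in ICRF-193 libraries A, B and C, against 44.6, 36.7 and 47.5 in DMSO libraries A, B and C. Pcdhb22 was at 49.2, 42.5 and 33.7 normalised reads in ICRF-193 and at 36.6, 15.9 and 36.7 in DMSO. Both overlapped between the groups. Pcdhb3, next in level, was at 11.0, 30.1 and 25.8 normalised reads in ICRF-193 libraries A, B and C, against 8.76, 9.92 and 18.4 in DMSO libraries A, B and C, and also overlapped.

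Named after its values were seen, Pcdhb2 was at 15.1, 23.8 and 19.1 normalised reads in ICRF-193 libraries A, B and C, against 6.37, 2.98 and 9.73 in DMSO libraries A, B and C. All ICRF-193 libraries were above all DMSO libraries. The log2 fold change in the authors' deposited table was 1.60 (adjusted p = 0.116, DESeq), and limma-voom gave 1.65 with a standard error of 0.43 (adjusted p = 0.049). Only its ICRF-193 libraries reached the 10 reads that the fit required. Without a filter on low reads the adjusted p was 0.0581 (limma-voom). The limma-voom call did not hold without DMSO-A (adjusted p = 0.0647), without DMSO-B (adjusted p = 0.135) or without DMSO-C (adjusted p = 0.0629), and without any ICRF-193 library the gene had too few reads for the fit. At the lower end, also named after their values were seen, Pcdhb10 and Pcdhb12 had 3 reads each in ICRF-193 and 0 in DMSO, Pcdhb13 had 5 in ICRF-193 and 0 in DMSO, and Pcdhb9 had 0 in ICRF-193 and 3 in DMSO.

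The libraries of both groups did not overlap for 16 of the 69 members, 11 higher and 5 lower in ICRF-193. Over 18600 genes the same held for 17.9% higher and 15.3% lower, so the protocadherin counts are near or below that background. On the worked-back reads limma-voom could test 36 members, which reached 10 reads in 3 or more libraries. It called 2 higher (Pcdh8 and Pcdhb2) and 1 lower (Pcdhga8), beside 9.85% of 14868 genes higher and 5.91% lower. Pcdhb2 entered that fit only through its ICRF-193 libraries. With the split term limma-voom called 9 higher and 2 lower, beside 27.2% higher and 32.3% lower over all genes. The 9 were Pcdh1, Pcdh8, Pcdh10, Pcdh12, Pcdh18, Pcdhb2, Pcdhb3, Pcdhgc3 and Pcdhgc5, and the 2 were Pcdhga1 and Pcdhga8. Without both libraries A it called 5 of 33 higher and 1 lower, beside 24.2% higher and 29.6% lower over all genes.

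The libraries A bore on some members strongly. Among 29 members with at least 100 reads, library A over the mean of B and C was 9.40 in ICRF-193 and 10.7 in DMSO for Pcdh7. It was 4.05 in ICRF-193 and 4.51 in DMSO for Pcdh18, and 2.68 in ICRF-193 and 6.13 in DMSO for Pcdhgc5. Among the gamma-B genes of these 29 it reached 2.64 in ICRF-193 and 2.53 in DMSO. For Pcdh17 it was 1.16 in ICRF-193 and 0.421 in DMSO. Over 14139 genes with as many reads the median was 0.967 in ICRF-193 and 0.994 in DMSO, and 4.54% of genes in ICRF-193 and 6.75% in DMSO were above 2. For Pcdh7, Pcdh18 and Pcdhgc5 the high values lay in the same libraries as the high sum of fibroblast and feeder markers, while Pcdh17 was lowest in DMSO-A. The part of such cells in the members' values was not tested.

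**Figure D5:**
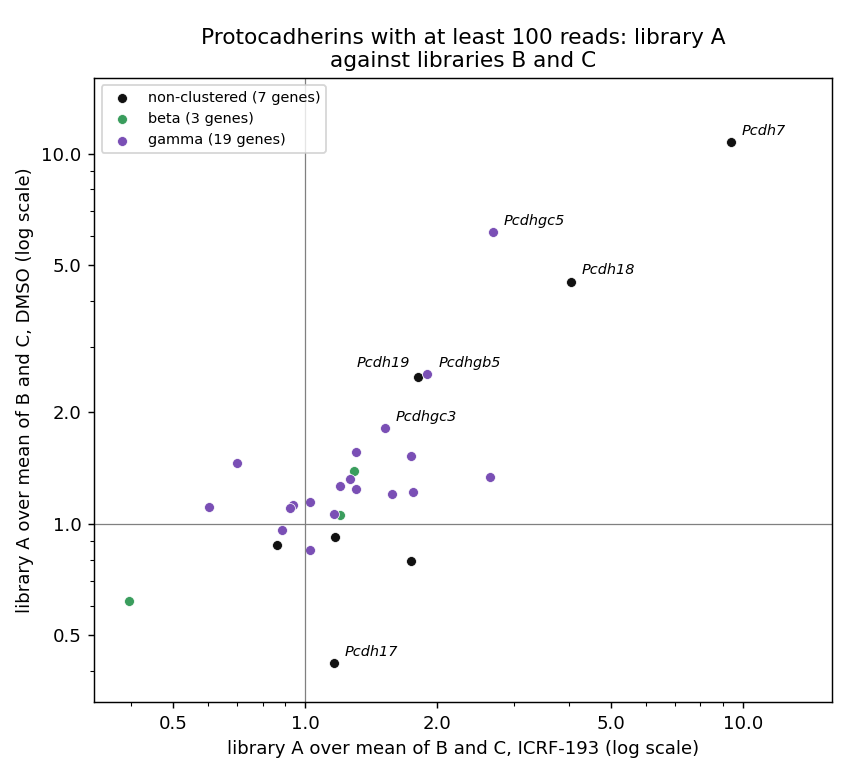
Library A over the mean of libraries B and C in ICRF-193 (horizontal, log scale) and in DMSO (vertical, log scale) for the 29 protocadherins with at least 100 reads, coloured by family. Pcdh7 lies at 9.40 and 10.7 and Pcdh18 at 4.05 and 4.51, far from most other members.

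For genes that govern the clusters, the limma-voom log2 fold change was below 0 in 23 of 23 fitted with the authors' size factors, beside 53.4% of all genes. With total-read scaling it was below 0 in 19 of 23, beside 40.5% of all genes. Of 24 regulators of cluster expression (CTCF, cohesin, DNA methyltransferases and repressors) the authors' test called 0 higher and 3 lower, beside 5.97% higher and 1.26% lower over all genes, and the median log2 fold change in the authors' deposited table was -0.28. The 3 were Dnmt3b, which adds DNA methylation at clustered promoters in the embryo, Trim28, a co-repressor of zinc finger proteins, and Zfp143, a factor of promoters and chromatin contacts. Zfp143 was at 1322, 1201 and 1135 normalised reads in ICRF-193 libraries A, B and C, against 2256, 2080.3 and 2021 in DMSO libraries A, B and C. The log2 fold changes in the authors' deposited table were -0.83 for Dnmt3b (adjusted p = 0.0166), -0.87 for Trim28 (adjusted p = 0.00692) and -0.80 for Zfp143 (adjusted p = 0.02). Ctcf averaged 6714 ± 577 normalised reads in ICRF-193 and 9123 ± 413 in DMSO (SD, n = 3 each), a log2 fold change of -0.44 in the authors' deposited table (adjusted p = 0.343, DESeq). By limma-voom Ctcf passed (adjusted p = 0.0262), and the list gave 0 higher and 5 lower, beside 9.85% higher and 5.91% lower over all genes. With the split term it gave 0 higher and 17 lower, beside 27.2% higher and 32.3% lower.

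Of 23 partners of protocadherin proteins (kinases, the WAVE complex, proteases that shed them and other binding partners) the authors' test called 1 higher and 1 lower, beside 5.97% higher and 1.26% lower over all genes, and the median log2 fold change in the authors' deposited table was -0.12 (0.011 by limma-voom with total-read scaling). Ptk2b, the kinase Pyk2 that clustered protocadherins restrain in neurons, was at 2141, 2621 and 2972 normalised reads in ICRF-193 libraries A, B and C, against 876, 747 and 833 in DMSO libraries A, B and C. It rose, with a log2 fold change of 1.66 in the authors' deposited table (adjusted p = 8.79e-09, DESeq). Fzd5, a Wnt receptor, was at 1999.5, 1349 and 1462 normalised reads in ICRF-193 and at 6252, 4089 and 4229 in DMSO. It fell, with a log2 fold change of -1.60 in the authors' deposited table (adjusted p = 6.93e-05, DESeq). Neither pair of groups overlapped.

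Of 16 genes beside or between the clusters on the chromosome, the authors' test called 0, beside 5.97% higher and 1.26% lower over all genes. At an unadjusted p under 0.05 it also had 0, beside 11.5% higher and 5.38% lower. Limma-voom called 0, beside 9.85% higher and 5.91% lower over all genes. With the split term it called 3 higher and 7 lower, beside 27.2% higher and 32.3% lower. The log2 fold changes of the 16 genes in the authors' deposited table ran from -0.45 to 0.42. Their median there was -0.15 (-0.058 by limma-voom with total-read scaling). Taf7, a transcription initiation factor gene that lies between the beta and gamma clusters, was at 6811, 6533 and 7156 normalised reads in ICRF-193 libraries A, B and C, against 5642, 6539 and 6614 in DMSO libraries A, B and C. Hdac3, a histone deacetylase gene beyond the gamma cluster, was at 3453, 4298 and 4489 normalised reads in ICRF-193 and at 3572, 4446 and 4539 in DMSO. Both overlapped between the groups.

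The ES cell label was checked against its markers, which were present: Pou5f1, a core pluripotency factor, averaged 32352 normalised reads in ICRF-193 and 42678 in DMSO in the authors' deposited table. Of 10 ES cell markers the authors' test called 2 lower, Zfp42 and Lin28a, and of 6 neural progenitor markers 1 lower, Pax6. It called 0 higher in either list, beside 1.26% lower and 5.97% higher over all genes. The median log2 fold change in the authors' deposited table was -0.60 over the ES cell markers and -0.35 over the neural progenitor markers. The neural progenitor markers went both ways. Pax6 (-1.52), Hes5 (-1.52) and Sox1 (-1.18) were below 0, while Nes (0.48), Fabp7 (0.63) and Olig2 (0.86) were above. Olig2 and Hes5 had few reads. Olig2 averaged 4.25 normalised reads in ICRF-193 and 2.34 in DMSO, and Hes5 6.51 in ICRF-193 and 18.6 in DMSO. Limma-voom called Pax6 lower (adjusted p = 0.00256) and Nes higher (adjusted p = 0.0465), beside 5.91% lower and 9.85% higher over all genes. The summed level of all 6 ran from 4554 to 5513 normalised reads in ICRF-193 and from 3773 to 4262 in DMSO. Nes alone averaged 4601 in ICRF-193 and 3298 in DMSO. The part of either list in the protocadherin values was not tested.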

How the data were processed

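Total RNA of the ES cells was made into libraries by a standard Illumina protocol, per the labels' protocols. TopHat, HTSeq, DESeq and the mouse build mm9 are named in the submitters' processing notes; versions, annotation and settings are not given in the sources used here. Both group columns are a signal as the authors deposited it: reads over a library's size factor, averaged over 3 libraries. The deposited fold change is the ratio of the ICRF-193 mean to the DMSO mean, and the deposited log2 fold change is its log2. The deposited p-values are the authors' test per gene, raw and adjusted, and calls use an adjusted p under 0.05 over 18759 genes.

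The design foresaw a count test per library and, failing columns per library, the authors' own test, which is therefore the main one. Reads per library were worked back from the 15 digits of each mean by a lattice search for whole numbers: 18197 of 18759 genes (97.0%) had a single solution, 403 were taken at a posterior of at least 0.99, and 159 of high level were not resolved and enter no fit or SD. The library totals include their most probable combination. Recomputing the size factors on these reads moved them by at most 0.196%. Limma-voom (limma 3.58.1, R 4.3.3) with Benjamini-Hochberg adjustment used genes reaching 10 reads in at least 3 libraries, also with a term for libraries A against B and C, a split seen in the reads that no label names. The search and the fit were tested on simulated data. Counting error is part of the spread between libraries.

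The members and lists were chosen with earlier results of these data known. Named with values were every non-clustered gene with reads, every called member, the C-type genes and the 3 most abundant genes of each cluster; others are marked where named. Levels per kilobase use exons of GENCODE M21 (GRCm38) that no other protocadherin gene shares.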

Additional observations from a re-analysis of the deposited data

How the results depend on the processing

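The count of members called higher (1 by the authors' test) was 0 among members with a mean of at least 50 normalised reads, 2 by limma-voom, 9 with the split term, 3 with total-read scaling, 2 with upper-quartile scaling and 3 without a filter on low reads. Over all genes limma-voom called 1464 of 14868 higher, 4043 with the split term, 1893 with total-read scaling and 1792 with upper-quartile scaling. Without the filter it called 1489 of 18600 higher. The 3 members called there were Pcdh8 and 2 beta genes, and Pcdhb2 was not among them (adjusted p = 0.0581, limma-voom). Leaving out 1 library gave 0 members (without ICRF-193-B, ICRF-193-C or DMSO-B) to 2 (without DMSO-A). Over all genes it gave 388 (without ICRF-193-B) to 1736 (without DMSO-A) higher. The split term itself follows a split seen in the reads. In further alternatives chosen after seeing the data the count called higher was 5 without both libraries A, beside 3460 of 14313 genes. It was 11 without a filter but with the split term, beside 4393 of 18600 genes. The count called lower (1) was 0 at a mean of at least 50 and 2 with the split term, with or without the filter. Over all genes the split term called 4809 lower with the filter and 4701 without it. Leaving out 1 library gave 0 members lower (without the same 3) to 1, beside 89 to 1378 lower over all genes. The median log2 fold change of the clustered members (0.30) was 0.10 with a pseudocount of 10, -0.085 at a mean of at least 50, -0.020 by limma-voom, -0.030 with the split term, 0.038 without both libraries A, 0.11 with total-read scaling and 0.090 with upper-quartile scaling, and -0.073 to 0.081 when leaving out 1 library. The filtered fits hold 26 of the 57 clustered members with reads, so fewer genes enter. The median of the non-clustered members stayed above 0 in every alternative run. Total-read scaling moved the median of all genes to 0.095, against -0.040 with the authors' size factors, and with it Pcdhga12 was at 0.017 and Pcdhgc3 passed (adjusted p = 0.0463, limma-voom). Pcdhgc3 also passed without DMSO-A (adjusted p = 0.0197, limma-voom).

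Over 25 named members and 302 alternative values, 9 changed sign, in 5 members. Leaving out 1 library gave limma-voom values of -0.10 (without ICRF-193-A) to 1.37 for Pcdh18, -0.85 (without ICRF-193-A) to 1.50 for Pcdh7, -0.57 to 0.21 (without DMSO-A) for Pcdh19 and -0.017 (without DMSO-B) to 0.17 for Pcdhb17. Pcdh7 was also below 0 without DMSO-B (-0.45) and without DMSO-C (-0.18), and Pcdhga12 is given above. The cause of these changes was not tested. No paired analysis was possible because the deposited columns are group means and the worked-back libraries carry no replicate number. Depth limits the alpha and beta genes, most of which had too few reads for a fit on single libraries.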
